A study of Bos taurus with 15 samples.

Results

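S100A8 (ENSBTAG00000012640), S100A9 (ENSBTAG00000006505) and S100A12 (ENSBTAG00000012638) are the calgranulins, and they were followed here as 3 of the 27607 genes in the raw count table. They were listed by Ensembl ID as a possible readout of granulocytes in white blood cells. The choice was made with earlier results of these data known. All 3 passed the filter on low counts, which kept the 12270 genes with a CPM (counts scaled to a common library size) of 1 or more in 8 or more of the 15 heifers. The deposited tables hold IDs only, and the pairing of these 3 IDs with their symbols was given with the selection and was not checked against an annotation.

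Calgranulins are small calcium-binding proteins of the S100 family. S100A8 and S100A9 join into calprotectin, which binds zinc and manganese and so withholds them from microbes, and which signals through TLR4 when it is released. S100A12 binds metals in a similar way and is a ligand of RAGE, the receptor for advanced glycation end products. All of them are plentiful in the cytosol of neutrophils and are also made by monocytes, and their rise is a familiar sign of inflammation. In the RefSeq gene table for the assembly ARS-UCD2.0, the protein-coding genes stand in the order S100A8, S100A12 and S100A9, with PGLYRP4, a peptidoglycan recognition protein, as the next one after S100A9. No positions are given because the reads were aligned to another assembly, ARS-UCD1.2.

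The RNA came from peripheral white blood cells (PWBC) of 15 Angus-Simmental crossbred heifers, bled at weaning, and was sequenced as 1 library per heifer. All heifers later went through the same estrus synchronization, fixed-time artificial insemination (AI) and exposure to bulls. The groups were formed afterwards from the pregnancy check, with 8 heifers pregnant to AI and 7 not-pregnant heifers, so every sample predates the outcome that names its group, and heifers that conceived by a bull were not included. PWBC were what remained of a buffy coat after the red cells had been lysed. Such a pellet can hold neutrophils and other granulocytes beside mononuclear cells, in proportions that were not given in the sources used here. More calgranulin-producing cells and more calgranulin RNA per cell cannot be told apart in it. Markers that define neutrophils, monocytes or lymphocytes were not analysed here, since the tables pair 0 of the IDs with gene names, so neither the labelled cell type nor the use of the calgranulins as a granulocyte readout was checked against other genes.

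Between 15987111 and 24909038 counts were assigned to genes per heifer. Heifers 4 and 37 stood apart from their groups on the leading principal component, which held 38.3% of the variance in log2 CPM over the kept genes. Heifer 4, pregnant to AI, scored -33.8 while the rest of its group scored between 13.3 and 49.4. Heifer 37, not-pregnant, scored 21.2 while the rest of its group scored between -52.3 and -10.6. Results are therefore also given without this pair of heifers.

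The calgranulins differed in their place among the transcripts of these PWBC. By mean CPM, S100A12 was higher than 92.3% of the kept genes, S100A9 than 75.6% and S100A8 than 67.3%. Together they held between 0.0114% (heifer 3) and 0.0785% (heifer 47) of a heifer's counts on genes, with a median of 0.0299%. These genes are known to be among the most abundant transcripts of neutrophils, so shares this low do not establish how many granulocytes the pellets held, and the readout was not tested. The S100A8 count was between 322 (heifer 3) and 2045 (heifer 47), which placed the gene between rank 7132 and rank 1582 when the genes of a heifer are ordered by count. For S100A9 the count was between 479 (heifer 44) and 3832 (heifer 47), at ranks 5506 and 687. The S100A12 count was between 1275 (heifer 3) and 7005 (heifer 47), at ranks 2969 and 328. Heifer 47 thus had the most counts of each gene, although its library was the smallest of its group, with 16415025 counts in all. Counts are not corrected for transcript length, so they do not say which of the genes had more RNA molecules.

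The smallest share of any calgranulin was that of S100A8 in heifer 3, 0.00165% of counts, with a 95% Wilson interval of 0.00148% to 0.00184%. Intervals of this kind cover counting error only. Even at the lowest count, counting error amounted to a coefficient of variation of 5.57% for S100A8, 4.57% for S100A9 and 2.80% for S100A12. The spread between heifers was far wider, as the next values show.

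On the scale of CPM with TMM normalization, which corrects each library for its size and composition, S100A8 varied 6.49-fold between the lowest and the highest heifer, S100A9 6.99-fold and S100A12 5.62-fold. The coefficient of variation over the 15 heifers was 49.8% for S100A8. Among the 1227 genes in the same decile of mean CPM, the median coefficient of variation was 15.1%, and S100A8 exceeded 97.0% of them. S100A9 had a coefficient of variation of 63.6%, above 97.8% of the genes at its level, whose median was 14.2%. S100A12 had 45.6%, above 92.9% of the genes at its level, whose median was 16.1%. These percentiles describe all 15 heifers together, group difference included. Each calgranulin was therefore among the more variable genes for its level.

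All 3 calgranulins were higher in heifers pregnant to AI, by 1.84-fold to 1.99-fold. The CPM of S100A8, the smaller subunit of calprotectin, had a lowest value of 17.9 (heifer 3), a median of 28.7 and a highest value of 57.3 (heifer 37) in not-pregnant heifers. In heifers pregnant to AI its lowest value was 44.4 (heifer 4), the median 61.1 and the highest 116.0 (heifer 47). The groups overlapped, but 5 of the 8 heifers pregnant to AI lay above every not-pregnant heifer, and all 8 lay above the not-pregnant median. The mean CPM was 65.4 ± 22.9 (SD, n = 8) against 32.8 ± 13.7 (SD, n = 7). The log2 fold change of S100A8 was 0.99 (standard error 0.25, 95% interval 0.47 to 1.51, edgeR adjusted p = 0.0291), a fold of 1.99.

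S100A9, the other subunit of calprotectin, had a CPM of 31.1 (heifer 44) to 64.5 (heifer 37) in not-pregnant heifers, with a median of 43.6. In heifers pregnant to AI the CPM ran from 56.5 (heifer 41) to 217.4 (heifer 47), with a median of 73.0. Here 6 of the 8 heifers pregnant to AI lay above every not-pregnant heifer, and heifer 47 stood well above the next heifer of its group, with 217.4 against 97.3. The mean CPM was 90.9 ± 52.6 (SD, n = 8) against 46.1 ± 12.3 (SD, n = 7). The log2 fold change of S100A9 was 0.98 (standard error 0.27, 95% interval 0.41 to 1.54, edgeR adjusted p = 0.0356), a fold of 1.97.

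S100A12, the RAGE ligand, had a CPM of 70.7 (heifer 3) to 160.1 (heifer 37) in not-pregnant heifers, with a median of 135.9. In heifers pregnant to AI it ran from 140.9 (heifer 4) to 397.3 (heifer 47), with a median of 233.7. Again 6 of the 8 heifers pregnant to AI were above all not-pregnant heifers, while heifers 4 and 45 were not. The mean CPM was 232.9 ± 83.2 (SD, n = 8) against 126.2 ± 33.7 (SD, n = 7). The log2 fold change of S100A12 was 0.88 (standard error 0.22, 95% interval 0.41 to 1.35, edgeR adjusted p = 0.0302), a fold of 1.84.

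**Figure D1:**
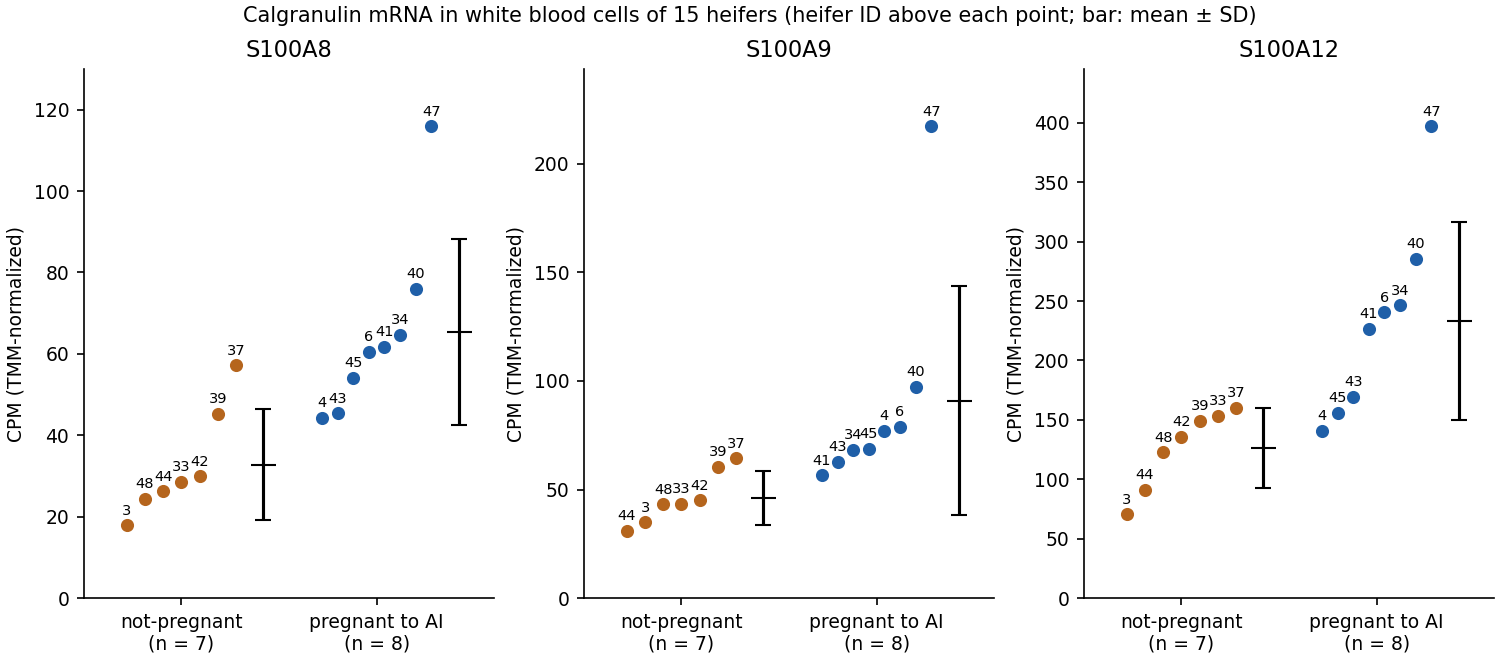
CPM with TMM normalization (y axis, linear from 0) of S100A8, S100A9 and S100A12 in the 7 not-pregnant heifers (brown) and the 8 heifers pregnant to AI (blue), 1 point per heifer with its ID, and the mean ± SD of each group as a black bar. Heifer 47 is the highest point in each panel, heifer 37 is the highest not-pregnant heifer in each, and the groups overlap in each.

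A gene was called when its adjusted p was at most 0.05 and its absolute log2 fold change at least 0.5, and by this rule 3 of 3 calgranulins were called as higher in heifers pregnant to AI. Over all 12270 genes tested, 5.85% were called in either direction, 3.66% with the higher level and 2.19% with the lower level in the heifers pregnant to AI. At an unadjusted edgeR p under 0.05, 34.4% of all genes differed and 17.3% were higher in heifers pregnant to AI, so a small p-value was common in these libraries. Across all genes tested, the log2 fold change had a median of 0.01. When each gene was tested alone by a two-sided exact permutation test of log2 CPM over all 6435 splits of the heifers, the p-value was 0.00218 for S100A8, 0.00186 for S100A9 and 0.00342 for S100A12. Of the 56 pairings of a heifer pregnant to AI with a not-pregnant heifer, the former had the higher CPM in 52 for S100A8, 53 for S100A9 and 52 for S100A12.

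Library composition moved with the groups as well. The TMM factor averaged 0.944 ± 0.0720 (SD, n = 7) in not-pregnant and 1.06 ± 0.0726 (SD, n = 8) in AI-pregnant animals, a difference with p = 0.0124 by the two-sided exact permutation test and 0.0373 once adjusted over 3 library measures. The 100 most abundant genes held 27.9 ± 2.40% (SD, n = 7) and 24.3 ± 3.41% (SD, n = 8) of counts in the same order, with an exact permutation p of 0.0392 and an adjusted p of 0.0587. With library size only in place of TMM, the log2 fold changes were 1.14 for S100A8, 1.13 for S100A9 and 1.04 for S100A12, while the median over all genes moved to 0.18. The part of composition in the calgranulin difference was not tested beyond this. For the total count per heifer, the exact permutation p was 0.686, and the same after adjustment.

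Heifers 4 and 37 lay toward the other group in the calgranulins too. Heifer 37 had the highest level of each calgranulin among the not-pregnant heifers, and heifer 4 had the lowest S100A8 and S100A12 among the heifers pregnant to AI. S100A9 in heifer 4 was not low, at 77.2 CPM, above the median of its group. Without heifers 4 and 37 the log2 fold change was 1.25 for S100A8 (edgeR adjusted p = 0.000892), 1.11 for S100A9 (adjusted p = 0.00837) and 1.03 for S100A12 (adjusted p = 0.00269). Since the pair was picked for lying toward the other group, a wider difference without it was likely beforehand and adds no separate support. Over all genes, 15.2% were called without heifer 4 alone and 12.9% without heifer 37 alone, against 5.85% with all heifers.

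The direction held with each heifer left out in turn, but the call did not. The log2 fold change stayed between 0.82 and 1.19 for S100A8, between 0.66 and 1.08 for S100A9 and between 0.73 and 0.96 for S100A12. Leaving out heifer 3, 34, 39, 42, 47 or 48 lost the call of all 3 genes, and leaving out heifer 4, 6, 37, 40, 41 or 43 kept all 3. Leaving out heifer 33 or 45 lost S100A8 and S100A9, and leaving out heifer 44 lost S100A9 and S100A12. The adjusted p then rose to at most 0.0706 for S100A8, 0.0797 for S100A9 and 0.0687 for S100A12, each without heifer 48 (edgeR). Over all genes, between 0.663% (without heifer 48) and 1.77% (without heifer 3) were called in the 6 fits that lost all 3 calgranulins, and between 2.17% (without heifer 43) and 15.2% (without heifer 4) in the 6 fits that kept them. The fits with mixed calls lay within both ranges. Their share was 1.21% without heifer 45, which kept S100A12, but 3.09% without heifer 33 and 3.03% without heifer 44. The unadjusted edgeR p of the calgranulins in these 15 fits was at most 0.00258 for S100A8, 0.00551 for S100A9 and 0.00292 for S100A12.

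Of all these fits, the one without heifer 47 moved a calgranulin the most. There the log2 fold change of S100A9 was 0.66 (standard error 0.16, edgeR adjusted p = 0.0505), against 0.82 (standard error 0.22, adjusted p = 0.0555) for S100A8 and 0.73 (standard error 0.20, adjusted p = 0.0555) for S100A12. The unadjusted edgeR p of S100A9 was lower in that fit than with all heifers, 0.000920 against 0.00210. That of S100A8 was higher, 0.00179 against 0.000927, as was that of S100A12, 0.00197 against 0.00105. Over all genes, 1.28% were called in that fit, against 5.85% with all heifers.

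**Figure D2:**
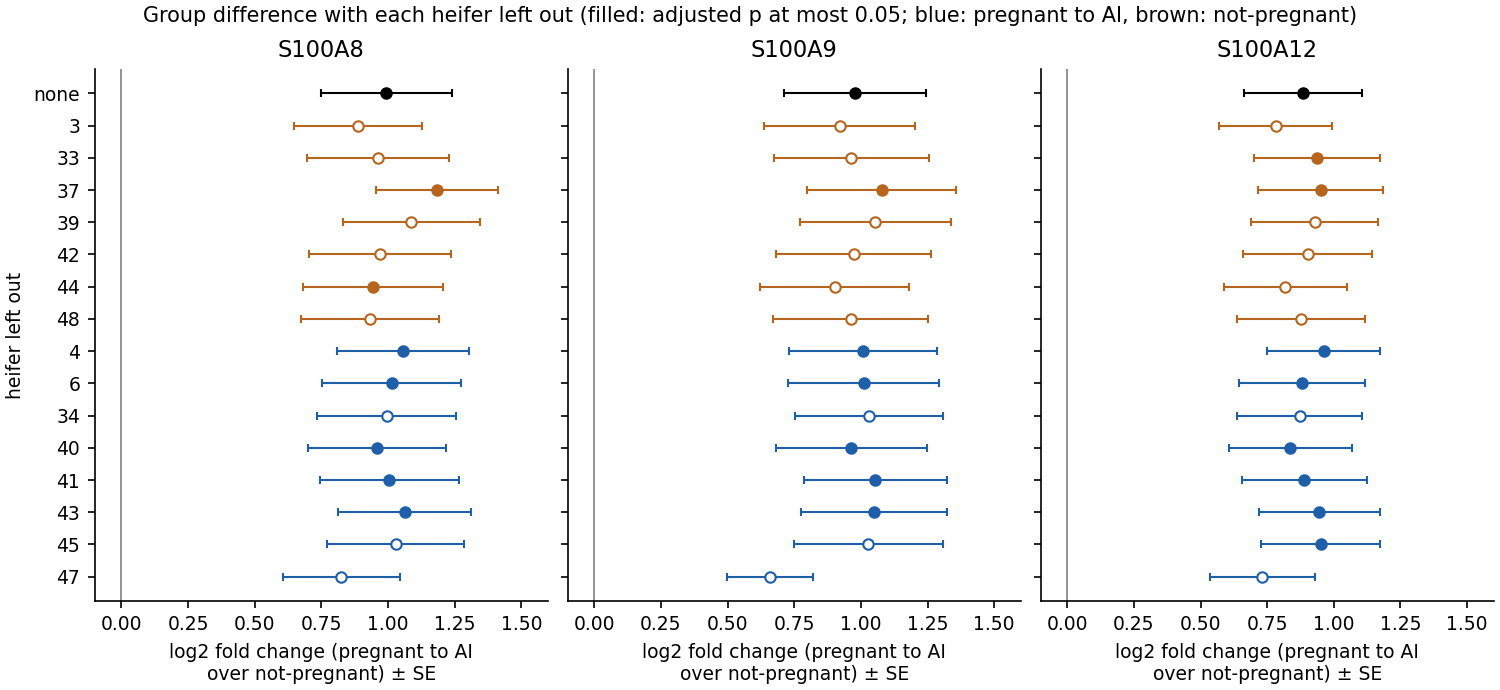
Log2 fold change of each calgranulin, pregnant to AI over not-pregnant (x axis), with its standard error as the bar, for all heifers (black, top) and with the heifer named on the y axis left out (brown, not-pregnant; blue, pregnant to AI). Filled points have an edgeR adjusted p of at most 0.05; all points lie above 0, and the lowest is S100A9 without heifer 47, at 0.66.

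The calgranulins rose and fell together from heifer to heifer. On log2 CPM over the 15 heifers, S100A8 and S100A12 had a Pearson r of 0.93 (permutation p = 1e-05, adjusted p = 1.5e-05 over the 3 pairs) and a Spearman rho of 0.96 (permutation p = 1e-05, adjusted p = 3e-05). S100A8 and S100A9 had an r of 0.90 (permutation p = 1e-05, adjusted p = 1.5e-05) and a rho of 0.83 (permutation p = 0.00018, adjusted p = 0.00027). S100A9 and S100A12 had an r of 0.87 (permutation p = 7e-05, adjusted p = 7e-05) and a rho of 0.80 (permutation p = 0.00053, adjusted p = 0.00053). A p of 1e-05 is the smallest that 100000 resamples can give. Heifers 3 and 47, at the low and high ends of S100A8, did not carry these relations alone, since without them r was 0.86 for S100A8 with S100A12 and 0.87 for S100A8 with S100A9. Without heifers 44 and 47, farthest from the median of S100A9, r was 0.78 for S100A9 with S100A12. With heifers 4 and 37 left out, r was 0.95 for S100A8 with S100A12, 0.91 for S100A8 with S100A9 and 0.89 for S100A9 with S100A12.

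These values include the group difference, so the pairs were also taken within each group. S100A8 and S100A12 kept together in both groups, with an r of 0.95 among the 8 heifers pregnant to AI (p = 0.000372 by exact permutation, adjusted p = 0.00112) and 0.79 among the 7 not-pregnant heifers (p = 0.0363 by exact permutation, adjusted p = 0.0363). Their rho was 0.95 and 0.86. S100A8 and S100A9 had an r of 0.84 in the pregnant (p = 0.0232 by exact permutation, adjusted p = 0.0330) and 0.88 in the not-pregnant group (p = 0.0157 by exact permutation, adjusted p = 0.0363). S100A9 and S100A12 had, in the same order, an r of 0.73 (exact permutation test, p = 0.0330, adjusted p = 0.0330, n = 8) and 0.81 (exact permutation test, p = 0.0313, adjusted p = 0.0363, n = 7).

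In heifers pregnant to AI, the relation of S100A9 with the other calgranulins rested on heifer 47. There rho was 0.45 for S100A8 with S100A9 (exact permutation test, p = 0.267, adjusted p = 0.267, n = 8) and 0.52 for S100A9 with S100A12 (exact permutation test, p = 0.197, adjusted p = 0.267, n = 8). Without heifer 47, r fell to 0.40 for S100A8 with S100A9 (exact permutation test, p = 0.369, adjusted p = 0.480, n = 7) and to 0.33 for S100A9 with S100A12 (exact permutation test, p = 0.480, adjusted p = 0.480, n = 7). S100A8 with S100A12 still had an r of 0.92 there (exact permutation test, p = 0.00298, adjusted p = 0.00893, n = 7). Whether the pairs differ in their correlation was not tested. In not-pregnant heifers rho was 0.89 for S100A8 with S100A9 and 0.86 for S100A9 with S100A12.

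**Figure D3:**
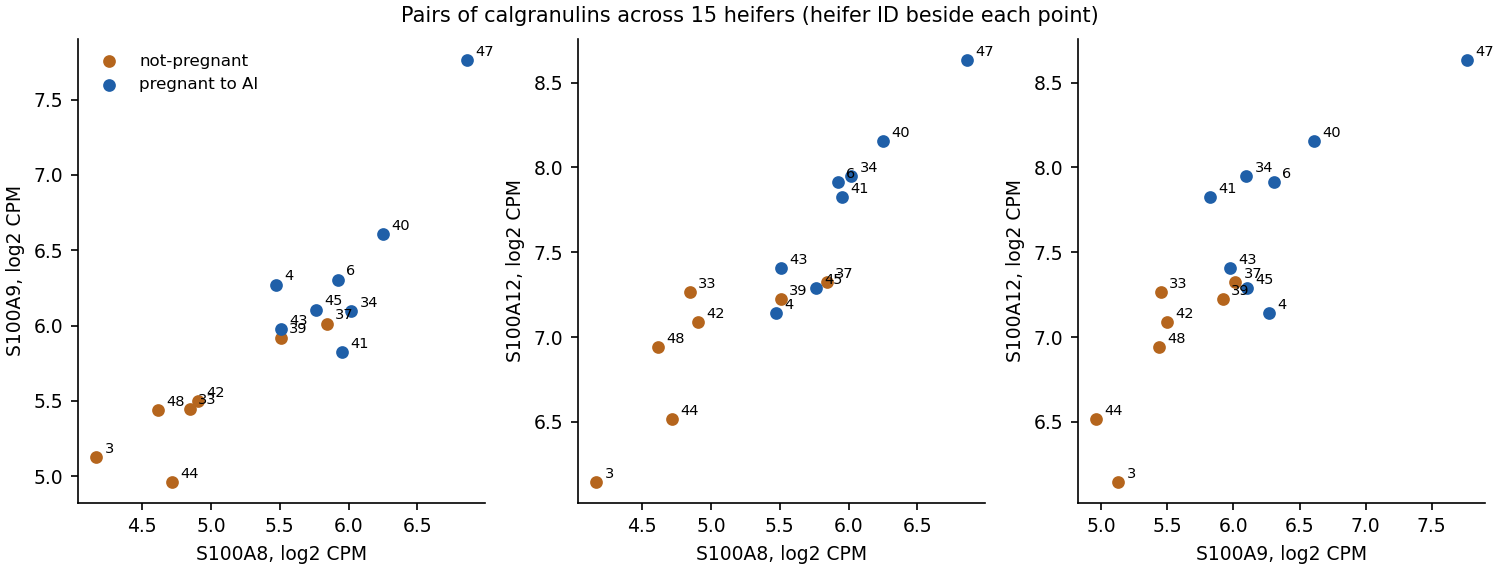
Log2 CPM of each pair of calgranulins (axes as labelled) in the 15 heifers, 1 point per heifer with its ID, blue for pregnant to AI and brown for not-pregnant. S100A8 against S100A12 has the highest r, 0.93, and heifer 47 lies at the upper end of each panel.

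The ratio of the counts of a pair within a heifer does not depend on the size or scaling of its library. The count of S100A8 over that of S100A9 was between 0.512 (heifer 3) and 1.09 (heifer 41), with a median of 0.662 in the not-pregnant and 0.774 in the pregnant group. S100A12 over S100A8 was between 2.80 (heifer 37) and 5.36 (heifer 33), with medians of 3.96 and 3.70 in the same order. S100A12 over S100A9 was between 1.83 (heifer 4) and 4.01 (heifer 41), with medians of 2.84 and 2.82. Heifer 47, the highest in each calgranulin, had the lowest S100A8 over S100A9 ratio of its group, 0.534.

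For none of the 3 ratios did the group difference exceed what the spread among heifers allows. The log2 difference, pregnant to AI minus not-pregnant, was 0.14 for S100A8 over S100A9 (p = 0.391 by a two-sided exact permutation test, adjusted p = 0.586 over the 3 ratios). It was -0.17 for S100A12 over S100A8 (exact permutation test, p = 0.236, adjusted p = 0.586) and -0.02 for S100A12 over S100A9 (exact permutation test, p = 0.907, adjusted p = 0.907). The ratios still varied between heifers by more than counting error, with a standard deviation on the log2 scale of 0.26 to 0.34 against a mean counting error of 0.05 to 0.07.

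**Figure D4:**
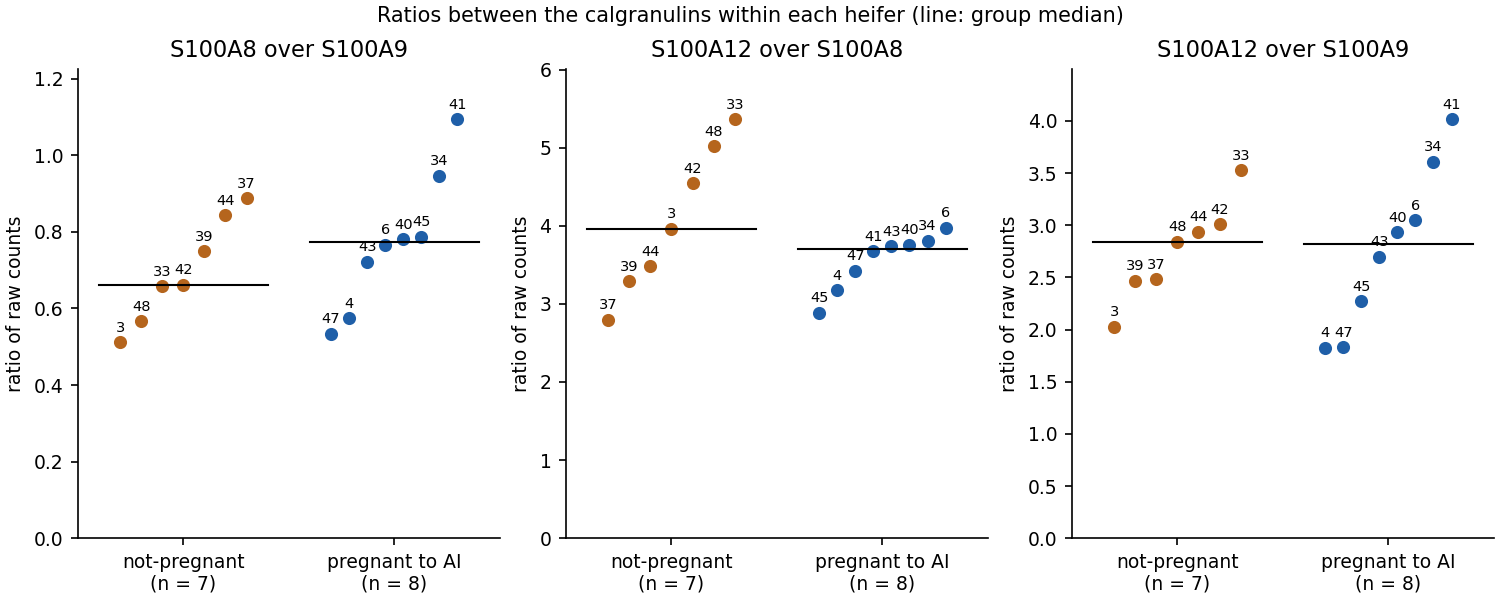
Ratio of raw counts (y axis, linear from 0) between the calgranulins named above each panel, 1 point per heifer with its ID, and a line at the group median. The groups overlap in each panel, and S100A12 over S100A8 runs from 2.89 to 3.98 in heifers pregnant to AI but from 2.80 to 5.36 in those not-pregnant.

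Few of the other genes tracked the calgranulins as closely as these tracked each other. Likeness was measured for each of the 12267 other kept genes as the mean of its Pearson correlations with the 3 calgranulins over the 15 heifers. The median of this mean r was 0.02, its range was -0.82 to 0.91, and 80 genes (0.652%) reached at least 0.8, while 6 genes were at or below -0.8. The mean of the 3 correlations among the calgranulins themselves was 0.90. All these values share the same 15 libraries and their scaling, and are given as a description. With library size only in place of TMM, the median r of all genes with S100A8 was 0.38, with S100A9 0.31 and with S100A12 0.37.

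Seen from each member among 12269 genes, S100A12 was the third closest gene to S100A8 and S100A8 the third closest to S100A12. S100A8 was also the third closest to S100A9. S100A9 stood further off, at place 16 from S100A8 and place 29 from S100A12, while S100A12 was at place 14 from S100A9. With the group means taken out of every gene, S100A12 was still at place 3 from S100A8, with an r of 0.86, and S100A9 was at place 12 from S100A8, with an r of 0.81. S100A9 and S100A12 then had an r of 0.75, at place 32 of the genes closest to S100A9.

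The genes most like the calgranulins are known here by ID only. The most and least alike genes were picked by correlation over all heifers, group difference included. A group difference in the direction of their mean r was therefore likely beforehand. Their fold changes and adjusted p-values are given as a description and add no separate support. ENSBTAG00000018223 had the highest mean r, 0.91, and its CPM was 3.85 ± 2.17 (SD, n = 7) in not-pregnant heifers against 12.7 ± 9.84 (SD, n = 8), with a log2 fold change of 1.71 (edgeR adjusted p = 0.0286). ENSBTAG00000007578 followed with a mean r of 0.90 and a CPM of 6.60 ± 2.11 against 12.4 ± 3.51, with a log2 fold change of 0.91 (edgeR adjusted p = 0.0280). Both kept a mean r of 0.82 and 0.81 with the group means taken out. At the other end, ENSBTAG00000019522 had the lowest mean r, -0.82, with a CPM of 133.5 ± 9.62 against 111.3 ± 7.89. ENSBTAG00000025046 was next at -0.80, with a CPM of 95.3 ± 6.19 against 82.6 ± 7.52. With the group means taken out, their mean r was weaker, at -0.61 for ENSBTAG00000019522 and -0.62 for ENSBTAG00000025046. Neither of these genes was called, with log2 fold changes of -0.26 (edgeR adjusted p = 0.0282) and -0.21 (edgeR adjusted p = 0.0563).

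**Figure D5:**
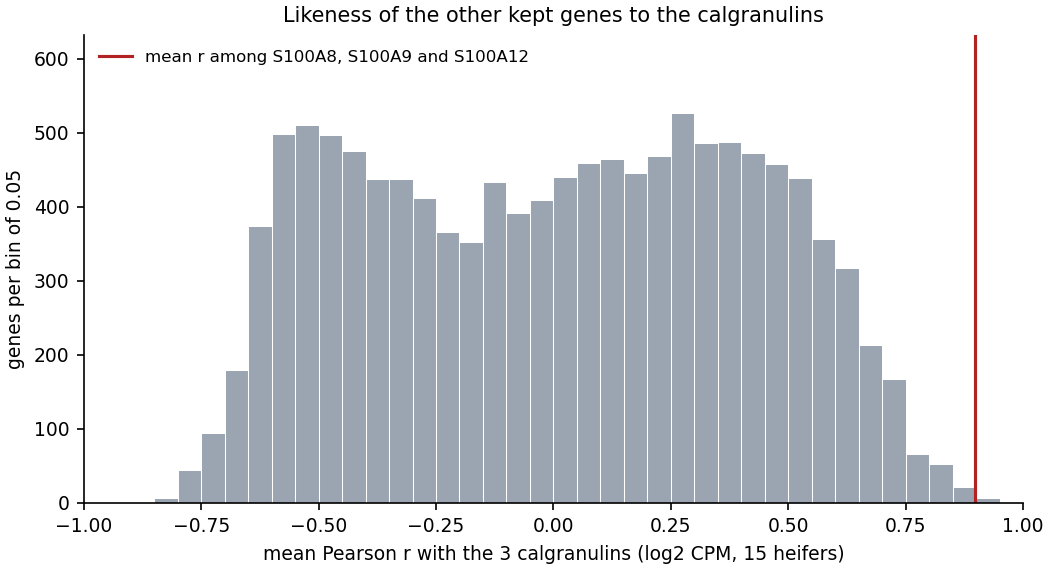
Number of kept genes (y axis) by their mean Pearson r with S100A8, S100A9 and S100A12 over 15 heifers (x axis, bins of 0.05). The red line marks the mean r among the calgranulins, 0.90, where few of the 12267 other genes lie.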

How the data were processed

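RNA from PWBC of 15 heifers was measured, with the heifer as the replicate. The authors aligned paired-end reads with STAR 2.7.5 to Ensembl's Bos taurus genome ARS-UCD1.2 after FastQC 0.11.9 and MultiQC 1.12, and deposited raw gene counts without normalization. The authors also deposited CPM values, made with edgeR 3.28.1 over the genes left by their filter, with no factor for composition. Each of these CPM values equalled the rescaled raw count within a relative difference of 5.1e-15, and both tables were used.

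A gene was kept if its CPM reached 1 in 8 or more heifers. Kept genes were scaled by TMM and entered the edgeR 4.0.16 quasi-likelihood test under R 4.3.3, with Benjamini-Hochberg adjustment over the 12270 genes and pregnancy status as the only term. A standard error is the log2 fold change over the square root of F. The fit was tested on simulated data. Log2 CPM had a prior count of 2. Permutations and correlations were run in Python 3.11.15 (scipy 1.17.1, pandas 2.3.3, numpy 2.4.6), with exact enumeration for fewer than 10 heifers and 100000 resamples otherwise. Ranks and percentiles are descriptions.

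Alternatives were DESeq2 1.42.0, limma-voom (limma 3.58.1), other scalings and filters, limma on the deposited CPM, logged after adding 1 or 0.5, an exact permutation test, and heifers left out. Correlations of deviations from the group means, those without heifer 47 within a group, and gaps of single heifers on log2 CPM were added after the data were seen. The members, lists and tests were chosen with earlier results of these data known. The genes named are the calgranulins and, by ID, the most and least alike genes, of which 2 of each are given. Lists of neutrophil, monocyte, lymphocyte and other marker genes, matched by symbol, were not used, because no table pairs the IDs with symbols. Reads shared with similar or overlapping genes, and sequences, were not analysed here. No pair of heifers of a group agreed within counting noise (chi-square per degree of freedom at least 35.8).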

Additional observations from a re-analysis of the deposited data

Results flagged for a closer look

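Heifer 47 stood far above the other heifers pregnant to AI in S100A8, with a CPM of 116.0 against 76.0 for the next, heifer 40. It did so in S100A9 as well, with 217.4 against 97.3. The gap was 0.559 of the range of the group for S100A8 and 0.746 for S100A9, above the critical value of 0.526 for 8 heifers. For S100A12 the same heifer was the highest too, with 397.3 against 285.5, but the gap, 0.436 of the range, was below that value. These gaps are on linear CPM. On log2 CPM, a scale added after the data were seen, the gap of heifer 47 was 0.440 of the range for S100A8, below the critical value, 0.597 for S100A9, above it, and 0.319 for S100A12, below it. Gaps were tested in 12 sets of heifers (3 genes and 3 count ratios in each group), 2 of which had such a heifer, and chance gives about 1 in 20 sets. Both were heifer 47, in S100A8 and S100A9, which had an r of 0.90. The sets are thus not independent, and their count cannot be weighed against that rate. Without heifer 47 the log2 fold change was 0.82 for S100A8 and 0.66 for S100A9, with edgeR adjusted p-values of 0.0555 and 0.0505. The unadjusted edgeR p-values there were 0.00179 and 0.000920, against 0.000927 and 0.00210 with all heifers, and 1.28% of all genes were called.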

How the results depend on the processing

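The higher level of S100A8, S100A9 and S100A12 in heifers pregnant to AI kept its direction under every alternative run, and its call in 10 of 10 alternatives other than leave-one-out that gave an adjusted p. The share of all genes called in these alternatives is not given here. Over these and the exact permutation test, which gave none, the log2 fold change lay between 0.99 and 1.25 for S100A8, 0.87 and 1.13 for S100A9, and 0.86 and 1.04 for S100A12. For the permutation test this value is a difference of mean log2 CPM. The highest adjusted p, 0.0381, 0.0476 and 0.0385, came when no filter was applied in edgeR and 20583 genes were tested. The lowest came without heifers 4 and 37 for S100A8 and S100A12, and with DESeq2 for S100A9 (adjusted p = 0.00497). The fit without heifers 4 and 37 adds no separate support, since that pair was picked for lying toward the other group. With each heifer left out, the log2 fold change lay between 0.82 and 1.19 for S100A8, 0.66 and 1.08 for S100A9, and 0.73 and 0.96 for S100A12, and the call was lost in 8, 9 and 7 of 15 fits. The cause was not tested. The correlations kept their side of 0.05 with each heifer left out, with r of at least 0.89 for S100A8 with S100A9, 0.90 for S100A8 with S100A12 and 0.82 for S100A9 with S100A12. Within heifers pregnant to AI, rho was 0.45 for S100A8 with S100A9 and 0.52 for S100A9 with S100A12, with permutation p-values above 0.05 although heifer 47 was included. Those of Pearson's r were above 0.05 there without heifer 47, an alternative chosen after the data were seen, where r was 0.40 for S100A8 with S100A9 and 0.33 for S100A9 with S100A12 over 7 heifers. Counts of called genes in neutrophil gene lists were not made, for want of gene names. No paired analysis was possible because each heifer belongs to 1 group. The largest counting error of a gene was 2.80% to 5.57% of its count, which covers counting only. With 1 library per heifer, other technical error could not be measured, and other depths were not tested.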
